A study of Homo sapiens with 4 samples.

Results

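Cohesin and condensin are ring-shaped protein machines of the chromosome, and this report gives the mRNA levels of their core subunits in SK-N-BE(2) cells carrying an shRNA against SAPCD2. The members are 5 subunits of mitotic cohesin (SMC1A, SMC3, RAD21, STAG1 and STAG2) and 5 subunits of condensin I, of which SMC2 and SMC4 are shared with condensin II (SMC2, SMC4, NCAPD2, NCAPG and NCAPH). They were chosen by name, matched through GENCODE symbols to the Ensembl identifiers, and all 10 were found among the 64252 genes of the count table. All 10 were also among the 18779 genes that passed the filter on low counts. RNA-seq was performed on 4 libraries of SK-N-BE(2), a human neuroblastoma cell line. The control group carried a scramble shRNA (sh-Scb, 2 libraries) and the knockdown group sh-SAPCD2 (2 libraries). By the study's methods, cells were infected with lentiviral particles and stable cells were obtained with puromycin. The labels give neither the hairpin (the study had sh-SAPCD2 #1 and #2) nor a time, and do not say that replicates were separate cultures, so the p-values measure the spread between these libraries, which may be technical.

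In both complexes, a pair of SMC proteins with ATPase heads is closed by a kleisin (RAD21 in cohesin, NCAPH in condensin I), to which proteins built of HEAT repeats bind (STAG1 or STAG2 in cohesin, NCAPD2 and NCAPG in condensin I). Cohesin holds sister chromatids together from replication until anaphase and extrudes loops in interphase, whereas condensin compacts chromosomes in mitosis. SMC2 and SMC4 are used by both condensins, which differ in their other subunits.

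Because condensin subunits are known as genes of dividing cells, the sequences before their start sites were examined for the letters of elements that control cell cycle genes. These were the CHR element bound by the DREAM and MuvB complexes (searched as TTTGAA), the CCAAT box (CCAAT) and the E2F site (TTTGGCGC or TTTCCCGC), on both strands. Each motif was counted on its own, also where its letters overlap those of another. The windows, from 250 bases before to 50 after each RefSeq start (GRCh38.p14), were found for 9 of the 10 members and not for RAD21. TTTGAA was found in a window of 4 of the 5 condensin subunits, SMC2, SMC4, NCAPD2 and NCAPG, and of 1 of the 4 cohesin subunits with a window, SMC3. Of all 35116 windows, 15.2% held it, and counted by gene, 4961 of 27305 symbols had a window with it. NCAPH held no TTTGAA but a CCAAT, a motif present in 34.6% of all windows and for 10846 of the symbols. An exact match to either E2F motif was found for SMC1A, STAG1 and STAG2 and for no condensin member. Such a match was present in 2.27% of all windows and for 750 of the symbols. Other forms of the E2F site were not searched. The NCAPG stretch printed below, for example, holds TTCCCGC, which is TTTCCCGC without its first T, on each strand. A match is a description of letters and not a bound site, and SMC1A, SMC2, SMC4 and STAG2 have several RefSeq starts, so that their chance of a match is larger.

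The stretches from 150 bases before to 10 bases after the start are shown for the condensin genes and for SMC1A, the cohesin subunit with the lowest fold change, so that the matches can be seen beside the values that follow. They are read along each gene's own strand, with the motif letters in capitals on either strand (TTCAAA is TTTGAA, and ATTGG is CCAAT, on the other strand). Positions count back from the start, the base before it being -1. In SMC2 (chr9:104094159-104094318, plus strand) the match spans the start itself. In SMC4 (chr3:160399500-160399659, plus strand) it lies from -75 to -70, and in NCAPG (chr4:17810829-17810988, plus strand) from -35 to -30. In NCAPD2 (chr12:6493952-6494111, plus strand) it lies from -145 to -140, with CCAAT matches from -70 to -66 and from -30 to -26. In NCAPH (chr2:96335616-96335775, plus strand) the CCAAT lies from -112 to -108. In SMC1A (chrX:53422645-53422804, minus strand, the second of its starts) TTTCCCGC lies from -20 to -13.
SMC2: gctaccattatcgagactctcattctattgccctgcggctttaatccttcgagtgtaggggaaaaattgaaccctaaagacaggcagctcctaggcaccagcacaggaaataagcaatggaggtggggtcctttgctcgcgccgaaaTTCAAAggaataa
SMC4: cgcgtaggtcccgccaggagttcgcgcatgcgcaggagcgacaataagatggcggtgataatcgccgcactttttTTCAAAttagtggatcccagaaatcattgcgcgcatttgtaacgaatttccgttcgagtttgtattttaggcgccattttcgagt
NCAPG: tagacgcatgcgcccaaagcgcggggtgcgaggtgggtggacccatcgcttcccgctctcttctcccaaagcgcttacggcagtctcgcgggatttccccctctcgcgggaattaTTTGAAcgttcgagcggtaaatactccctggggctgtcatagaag
NCAPD2: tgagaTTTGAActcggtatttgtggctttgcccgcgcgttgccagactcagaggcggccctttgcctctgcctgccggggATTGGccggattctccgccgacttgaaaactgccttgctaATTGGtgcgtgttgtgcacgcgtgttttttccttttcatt
NCAPH: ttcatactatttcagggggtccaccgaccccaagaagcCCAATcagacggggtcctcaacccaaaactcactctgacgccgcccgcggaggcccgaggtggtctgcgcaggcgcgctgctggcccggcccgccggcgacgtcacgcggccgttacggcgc
SMC1A: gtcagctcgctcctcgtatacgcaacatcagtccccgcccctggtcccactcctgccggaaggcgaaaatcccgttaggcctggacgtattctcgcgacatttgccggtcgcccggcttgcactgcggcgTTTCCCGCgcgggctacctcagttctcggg

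Library totals lay between 25347900 and 31850997 counts. A floor of 3 counts corresponded to 0.0955 to 0.119 CPM (counts per 1000000 counts of the library, scaled by TMM), which allows for counting error only. Every member lay far above it. The targeted gene SAPCD2 stood at 83.6 and 82.2 CPM in sh-Scb and at 35.4 and 52.5 CPM in sh-SAPCD2, which left 42.7% of the control mean in the first knockdown library and 63.3% in the second. Its log2 change was -0.91 (SE 0.193, with an adjusted p of 0.0206, and of 0.0749 without the filter on low counts). Of the 9 adrenergic neuroblastoma markers checked, all 9 were tested and 5 fell (adjusted p under 0.05), with summed levels of 2245 to 2308 CPM in the control group and 1795 to 2406 CPM in the knockdown group. Of 10 markers of other cells, 6 were tested, with sums of 187 to 204 CPM and 178 to 233 CPM, led by LUM. Over the 4 libraries LUM lay at 134 to 185 CPM, DCN at 21.8 to 30.9 CPM and PTPRC at 8.94 to 12.4 CPM, all well above the floor. HBB was at 0 in all 4 libraries and PECAM1 in 3 of them. The part of these cell type markers in the results below was not tested. The sh-SAPCD2 libraries differed from each other by GC content. Of 2822 tested genes with a transcript GC content under 40%, 85.1% were lower in the second knockdown library than in the first, against 23.4% of 7896 genes at 50% or more. The 10 members have GC contents from 36.6% to 51.6%, and all 10 were lower in the second library. SAPCD2 has a GC content of 66.5% and was higher in the second library. With a correction of each library for transcript GC content and length, the log2 change of SAPCD2 was -1.29. The part of GC content in the gap between its 2 knockdown libraries was not tested.

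Expression was compared between sh-SAPCD2 and sh-Scb to ask how SAPCD2-knockdown changed each complex. Of the 10 members, 9 fell in the sh-SAPCD2 libraries, all 5 condensin subunits and 4 of the 5 cohesin subunits, while SMC3 did not pass the test (edgeR's quasi-likelihood test, Benjamini-Hochberg adjusted p under 0.05 over all tested genes). Of all tested genes, 12.5% were called lower by this rule. None of the 10 rose, with 0 at an unadjusted p under 0.05 and 0 by DESeq2, and 12.4% of all tested genes were called higher. At the threshold stated in the study, the log2 fold change must also pass 1 in size. The study applied it to DESeq2 results, and here it was applied to edgeR's test, so the genes passing can differ. By it 5 of the 10 were lower (SMC2, SMC4, NCAPG, NCAPH and SMC1A), against 5.15% of all tested genes, and 0 were higher, against 4.69%. Without sh-SAPCD2 replicate 2, NCAPH and SMC1A alone of the 10 passed this threshold, since the log2 changes of SMC2, SMC4 and NCAPG were then -0.90, -0.88 and -0.93. In all 10 genes the groups did not overlap, with each knockdown library below each control library, as in 33.4% of all tested genes, while 33.5% had both knockdown libraries above both controls. The median log2 fold change was -1.12 over the condensin members and -0.58 over the cohesin members, beside 0.02 over all tested genes. In bulk RNA, fewer cells in a phase of the cycle and less RNA per cell cannot be told apart.

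**Figure D1:**
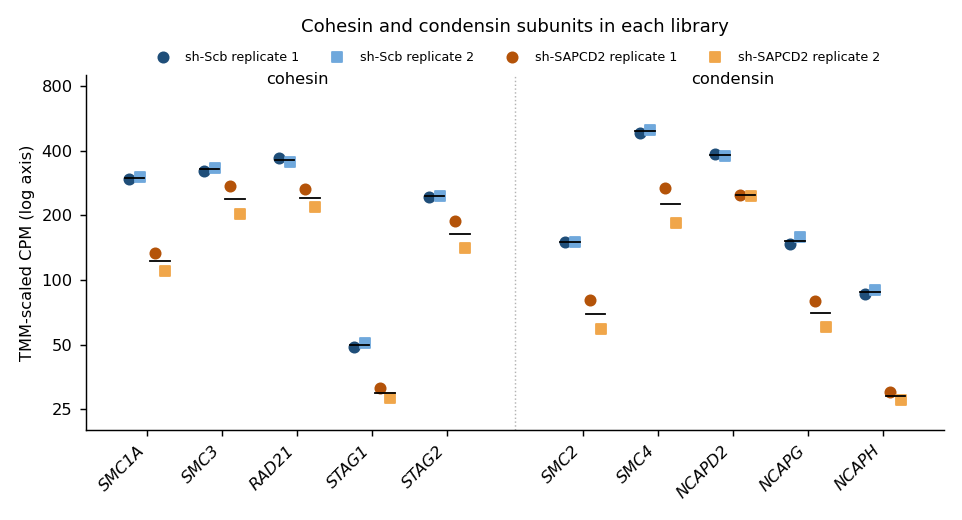
TMM-scaled CPM on a log axis for each cohesin and condensin subunit, with a point for each of the 4 libraries and a bar at the mean of each group (n = 2). In all 10 genes the orange knockdown points lie below the blue control points, from NCAPH at 28.9 against 87.7 CPM to SMC3 at 239 against 328 CPM.

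The SMC ATPases of condensin, SMC2 and SMC4, fell by nearly the same factor. SMC2 (ENSG00000136824, 25 exons of its canonical transcript, plus strand, chr9:104094260-104141419, hg38) stood at 151 and 150.1 CPM in sh-Scb and at 80.5 and 59.3 CPM in sh-SAPCD2. The log2 change was -1.11 (SE, the standard error of the fit, 0.159, with an adjusted p of 0.00697). SMC4 (ENSG00000113810, chr3:160399274-160434954, plus strand) was the most abundant member by CPM in the control group, with 486 and 498 CPM in sh-Scb but 267 and 185 CPM in sh-SAPCD2, so that the log2 change was -1.12 (SE 0.177, with an adjusted p of 0.00899). For both genes the second knockdown library was the lower of the pair. Per kilobase of canonical transcript, the ratio of SMC2 to SMC4 was 0.268 and 0.26 in sh-Scb and 0.26 and 0.276 in sh-SAPCD2. The groups overlapped in this ratio, unlike in the levels of its parts.

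NCAPH, the kleisin that closes the condensin I ring, had the lowest log2 fold change of the 10 members. NCAPH (ENSG00000121152, chr2:96335766-96377091, plus strand) stood at 85.8 and 89.7 CPM in sh-Scb and at 30.1 and 27.7 CPM in sh-SAPCD2. The groups lay far apart and the knockdown libraries retained 34.3% and 31.6% of the mean control level. The log2 change was -1.60 (95% interval -1.88 to -1.32, SE 0.116, with an adjusted p of 0.00201), and 2.56% of all tested genes had a log2 fold change as low or lower. NCAPH shares no exon with another expressed gene in GENCODE 44.

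The HEAT-repeat subunits of condensin I, which bind the kleisin, both fell, NCAPG with the lower log2 change, and the difference between them was not tested. NCAPG (ENSG00000109805, chr4:17810979-17844865, plus strand) stood at 147 and 158 CPM in sh-Scb and at 79.8 and 60.3 CPM in sh-SAPCD2, so that the log2 change was -1.13 (SE 0.154, with an adjusted p of 0.00615). NCAPD2 (ENSG00000010292, chr12:6493356-6531955, plus strand) had 385 and 377 CPM against 248.5 and 247 CPM, so that the log2 change was -0.62 (95% interval -0.84 to -0.40, SE 0.0908, with an adjusted p of 0.00733). The knockdown libraries held NCAPD2 at 65.2% and 64.9% of control, nearly the same value, while for NCAPG they held 52.3% and 39.5%. NCAPD2 has the highest GC content of the 10 members, 51.6%, and NCAPG has 38.7%. Without sh-Scb replicate 1 the adjusted p of NCAPD2 was 0.129, and without sh-Scb replicate 2 it was 0.104, and so 4 of the 5 condensin members were called in each case.

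Read as ratios per kilobase of canonical transcript, NCAPH was lower relative to the other condensin I subunits in the knockdown group. NCAPD2 to NCAPH was 5.61 and 5.25 in sh-Scb and 10.3 and 11.2 in sh-SAPCD2. SMC4 to NCAPH went from 6.69 and 6.55 to 10.5 and 7.88, and NCAPG to NCAPH from 2.25 and 2.32 to 3.49 and 2.86. In each of these 3 ratios both knockdown libraries lay above both control libraries. With 2 against 2 libraries, the smallest two-sided p of an exact permutation test is 0.333, and so the ratios are given without a test.

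**Figure D2:**
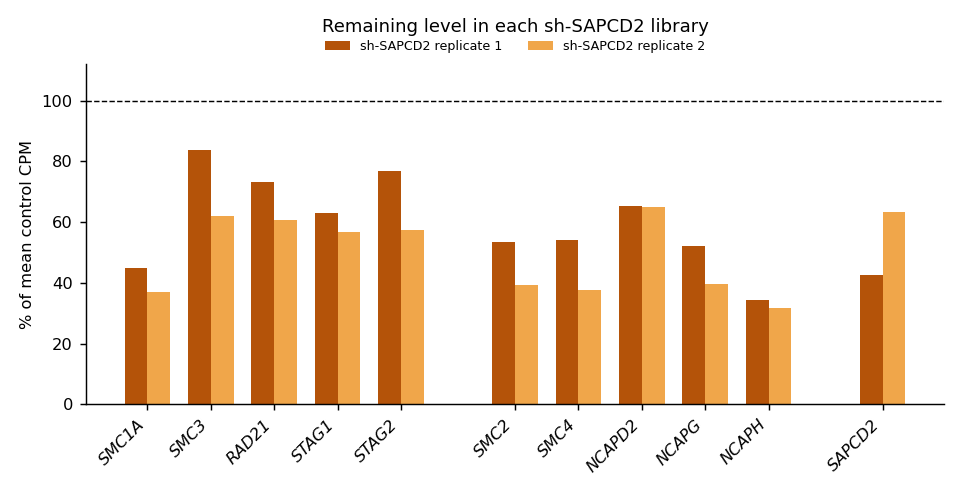
CPM in each sh-SAPCD2 library as a percentage of the mean of the 2 control libraries, with the dashed line at 100%, for the 10 members and SAPCD2. NCAPH (34.3% and 31.6%) and SMC1A (44.7% and 37.1%) are the lowest members. SMC3 (83.9%) keeps the most in the first library and NCAPD2 (64.9%) in the second. SAPCD2 alone of the genes shown is higher in the second library (63.3%) than in the first (42.7%). It also has the highest GC content of the genes shown, 66.5%, and the knockdown libraries differed by GC content.

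Of the cohesin SMC ATPases, SMC1A fell and SMC3, its partner in the ring, did not pass the test. SMC1A (ENSG00000072501, chrX:53374149-53422728, minus strand) stood at 295 and 302 CPM in sh-Scb and at 134 and 111 CPM in sh-SAPCD2. The log2 change was -1.29 (95% interval -1.59 to -0.99, SE 0.122, with an adjusted p of 0.00313), the only cohesin subunit of the 5 past the fold threshold of the study. SMC3 (ENSG00000108055, chr10:110567684-110606048, plus strand) stood at 321 and 334 CPM in sh-Scb and at 275 and 204 CPM in sh-SAPCD2. The groups did not overlap, but the knockdown libraries differed widely and the log2 fold change of -0.45 (95% interval -0.83 to -0.08) had an adjusted p of 0.0792 (standard error 0.154). By DESeq2 the adjusted p of SMC3 was 0.0279, and after each library was corrected for transcript GC and length it was 0.00598 at a log2 fold change of -0.36. SMC3 was also called lower without sh-SAPCD2 replicate 1 (log2 change -0.69, adjusted p = 0.000398) and without sh-SAPCD2 replicate 2 (log2 change -0.25, adjusted p = 0.00758). Per kilobase of canonical transcript, SMC1A to SMC3 was 0.522 and 0.514 in sh-Scb and 0.276 and 0.31 in sh-SAPCD2. The 2 groups of this ratio lay apart.

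The kleisin RAD21, cleaved by separase at anaphase, and the STAG subunits, which bind RAD21 in a mutually exclusive way, all fell, with log2 changes nearer to 0 than that of SMC1A, a difference that was not tested. RAD21 (ENSG00000164754, chr8:116845934-116874776, minus strand) stood at 371 and 353 CPM in sh-Scb and at 265 and 220 CPM in sh-SAPCD2, so that the log2 change was -0.58 (SE 0.12, with an adjusted p of 0.0199). STAG2 (ENSG00000101972, chrX:123960212-124422664, plus strand) had 244 and 247 CPM against 189 and 141 CPM, so that the log2 change was -0.58 (SE 0.151, with an adjusted p of 0.0387). STAG1 (ENSG00000118007, chr3:136336236-136752403, minus strand) was the least abundant cohesin member, with 48.8 and 50.9 CPM against 31.4 and 28.2 CPM, so that the log2 change was -0.74 (SE 0.125, with an adjusted p of 0.011). In all 3 genes the second knockdown library was the lower. Without sh-Scb replicate 1 or without sh-Scb replicate 2, 1 of the 5 cohesin members, SMC1A, was called lower, with adjusted p from 0.0678 to 0.187 for RAD21, STAG1 and STAG2. Without the filter on low counts 2 of the 5 were called, SMC1A and STAG1.

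STAG2 outweighed its paralog STAG1 in every library. Per kilobase of canonical transcript, STAG2 to STAG1 was 4.91 and 4.77 in sh-Scb and 5.9 and 4.9 in sh-SAPCD2. The groups overlapped in this ratio. RAD21 to SMC3 was 1.74 and 1.6 in sh-Scb and 1.45 and 1.63 in sh-SAPCD2, and again overlapped.

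**Figure D3:**
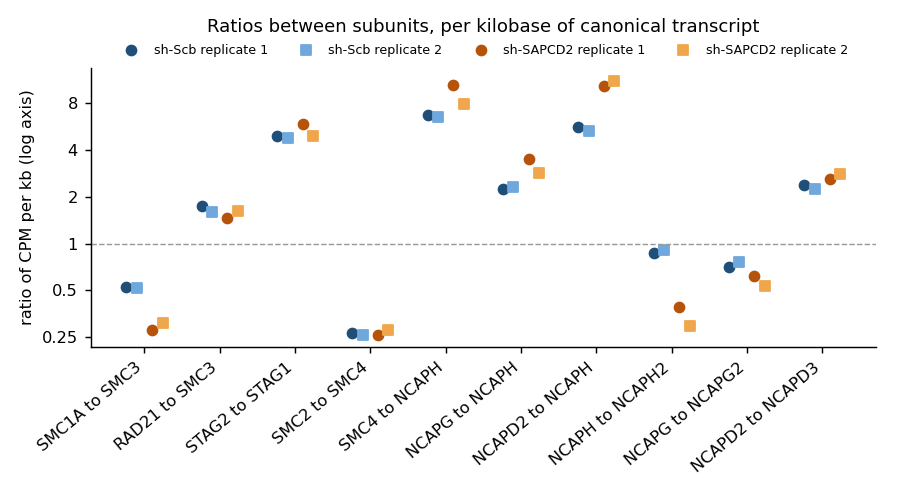
Ratios of CPM per kilobase of canonical transcript between subunits, on a log axis, with a point for each library and a dashed line at 1. The ratios with NCAPH as denominator rise and SMC1A to SMC3 and NCAPH to NCAPH2 fall in both knockdown libraries, while SMC2 to SMC4, RAD21 to SMC3 and STAG2 to STAG1 overlap between groups.

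The order of the levels depended on the length chosen. Per kilobase of the union of exons, the control group held 60.3 ± 1.04 for SMC4, 58.9 ± 0.867 for NCAPD2, 31.5 ± 1.66 for NCAPG, 27.6 ± 0.451 for SMC1A and 25.2 ± 0.840 for RAD21 (CPM per kilobase, SD, n = 2). Below these were SMC2 at 23.3 ± 0.082, SMC3 at 21.1 ± 0.591, STAG2 at 15.4 ± 0.158, NCAPH at 13.4 ± 0.421 and STAG1 at 6.35 ± 0.194. Per kilobase of canonical transcript, RAD21 came first at 98.9 ± 3.30, followed by SMC4 at 96.3 ± 1.67, whose libraries overlapped with those of RAD21. NCAPD2 at 78.9 ± 1.16, SMC3 at 59.3 ± 1.66 and STAG2 at 39.8 ± 0.409 came next, and then NCAPG at 33.3 ± 1.75 and SMC1A at 30.7 ± 0.503. The last 3 were SMC2 at 25.4 ± 0.0895, NCAPH at 14.5 ± 0.457 and STAG1 at 8.22 ± 0.251. STAG1 was lowest and NCAPH next to it under both lengths. RAD21, whose exon union of 14382 bases is far longer than its canonical transcript of 3660 bases, moved most between them. Of the neighbours in either order, RAD21 and SMC4 by canonical transcript were the only pair whose control libraries overlapped. In the knockdown group the last places were held by NCAPH at 4.79 ± 0.281 and STAG1 at 4.92 ± 0.373 per kilobase of canonical transcript, which overlapped.

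The subunits particular to condensin II, which is nuclear throughout the cell cycle, were examined beside their condensin I counterparts. NCAPD3 fell, with 252 ± 5.62 CPM in sh-Scb and 140.3 ± 8.37 CPM in sh-SAPCD2 (SD, n = 2 per group), so that the log2 change was -0.84 (adjusted p = 0.00455). NCAPG2 fell from 184 ± 1.82 to 107 ± 9.92 CPM, so that the log2 change was -0.78 (adjusted p = 0.00636). The kleisin NCAPH2 stood at 54.8 and 54.6 CPM in sh-Scb and at 42.5 and 52.2 CPM in sh-SAPCD2, with a log2 change of -0.21 (95% interval -0.54 to 0.13, adjusted p = 0.311). NCAPH2 has a GC content of 61.3%, and its knockdown libraries held 77.7% and 95.4% of control. The part of GC content in this gap, and so in the ratio of NCAPH to NCAPH2, was not tested. The ratio of the kleisins NCAPH to NCAPH2 per kilobase of canonical transcript was 0.865 and 0.908 in sh-Scb and 0.392 and 0.294 in sh-SAPCD2. NCAPG to NCAPG2 was 0.711 and 0.756 against 0.62 and 0.534, and NCAPD2 to NCAPD3 was 2.37 and 2.25 against 2.59 and 2.81. NCAPH and NCAPG were lower and NCAPD2 was higher relative to their condensin II counterparts, with no overlap between groups in any of the 3 ratios, which were not tested.

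Of 7 genes listed as chromosome partners, which include TOP2B and the condensin II inhibitor MCPH1, 5 fell. TOP2A, the topoisomerase that untangles sister chromatids, stood at 807 and 797 CPM in sh-Scb and at 341 and 267 CPM in sh-SAPCD2, with a log2 change of -1.40 (adjusted p = 0.00321). MKI67, which coats mitotic chromosomes, had 851 and 902 CPM against 404 and 290 CPM, so that the log2 change was -1.34 (adjusted p = 0.00503). KIF4A, the chromokinesin that works beside condensin, CDK1, which phosphorylates condensin at mitotic entry, and AURKB, which promotes condensin I loading, had log2 fold changes of -1.18, -1.06 and -1.17. The values of TOP2B, the paralog of TOP2A that is also expressed in cells that do not divide, were 361 and 371 CPM against 421 and 327 CPM, with a log2 fold change of 0.03 (95% interval -0.30 to 0.36). MCPH1, an inhibitor of condensin II, had a log2 change of -0.06 (95% interval -0.39 to 0.26).

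Of 14 cohesin regulators, 7 fell and none rose, with 1 higher at an unadjusted p under 0.05 and 0 higher by DESeq2. The median log2 fold change of the 14 was -0.46. Those that fell act on sister chromatid cohesion in S phase and mitosis, apart from CTCF. CDCA5 (sororin, which protects cohesin from release by WAPL) went from 103 and 104 CPM to 31.6 and 35.6 CPM, so that the log2 change was -1.62 (SE 0.117, with an adjusted p of 0.00201). ESCO2, the acetyltransferase that acts on SMC3 during replication, had 38.4 and 40.8 CPM against 19.6 and 13.6 CPM, so that the log2 change was -1.26 (adjusted p = 0.00898). PTTG1 (securin) and ESPL1 (separase, the protease that securin holds in check) had log2 fold changes of -1.12 and -0.89, and SGO1 and SGO2, the shugoshins that protect cohesin, had -1.10 and -0.85. CTCF, at which cohesin stops in interphase, had 96 and 101 CPM against 72.6 and 67.7 CPM, so that the log2 change was -0.49 (adjusted p = 0.0222).

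The regulators that load and release cohesin throughout the cell cycle did not pass the test. The loader NIPBL stood at 140.3 and 147 CPM in sh-Scb and at 164 and 117 CPM in sh-SAPCD2, so that the log2 change was -0.03 (95% interval -0.44 to 0.37), and the groups overlapped. Its partner MAU2, the release factor WAPL, and PDS5A and PDS5B had log2 fold changes from -0.44 to -0.27, with adjusted p from 0.100 to 0.192. In each of these genes both knockdown libraries lay below both control libraries, as in 33.4% of all tested genes. By edgeR's quasi-likelihood test the unadjusted p was 0.0353 for MAU2 and 0.0400 for PDS5B. The difference between the regulators that were called and those that were not was not tested. ESCO1, the acetyltransferase of interphase, had 16.7 and 15.4 CPM against 25.2 and 20.1 CPM (log2 fold change 0.50, adjusted p = 0.0751), and HDAC8, the SMC3 deacetylase, had a log2 fold change of 0.04. Without sh-SAPCD2 replicate 1, 12 of the 14 were called lower, and with the correction for GC content and length 11 were lower and 1 was higher. Without sh-SAPCD2 replicate 2, 2 of the 14 were called higher.

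Of the meiotic cohesin subunits, 3 of 4 were tested and none was called in either direction (at an unadjusted p under 0.05, 1 lower and 1 higher, and 0 by DESeq2). REC8, the meiotic kleisin, stood at 151 and 137 CPM in sh-Scb and at 170.5 and 202 CPM in sh-SAPCD2 (log2 fold change 0.37, adjusted p = 0.0744). STAG3 had 10.5 CPM in both control libraries and 11.2 and 11 CPM in the knockdown libraries. SMC1B was at 1.41 and 1.09 CPM against 0.553 and 0.414 CPM (log2 fold change -1.37, adjusted p = 0.0552), and RAD21L1 had no count in any library. Of the 6 genes of SMC5/6, the related complex of DNA repair, SMC6 fell from 116 ± 2.65 to 70.1 ± 15.4 CPM and NSMCE4A from 51.3 ± 0.319 to 32.9 ± 2.83 CPM (SD, n = 2 per group). None of the 6 rose, with 1 higher at an unadjusted p under 0.05 and 0 by DESeq2. Neither of the lower genes was called without sh-Scb replicate 1 or without sh-Scb replicate 2. SMC6 shares 107 exon bases with GEN1 on the other strand, and GEN1 had 2919 and 2852 counts in the control libraries and 1350 and 1163 in the knockdown libraries.

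**Figure D4:**
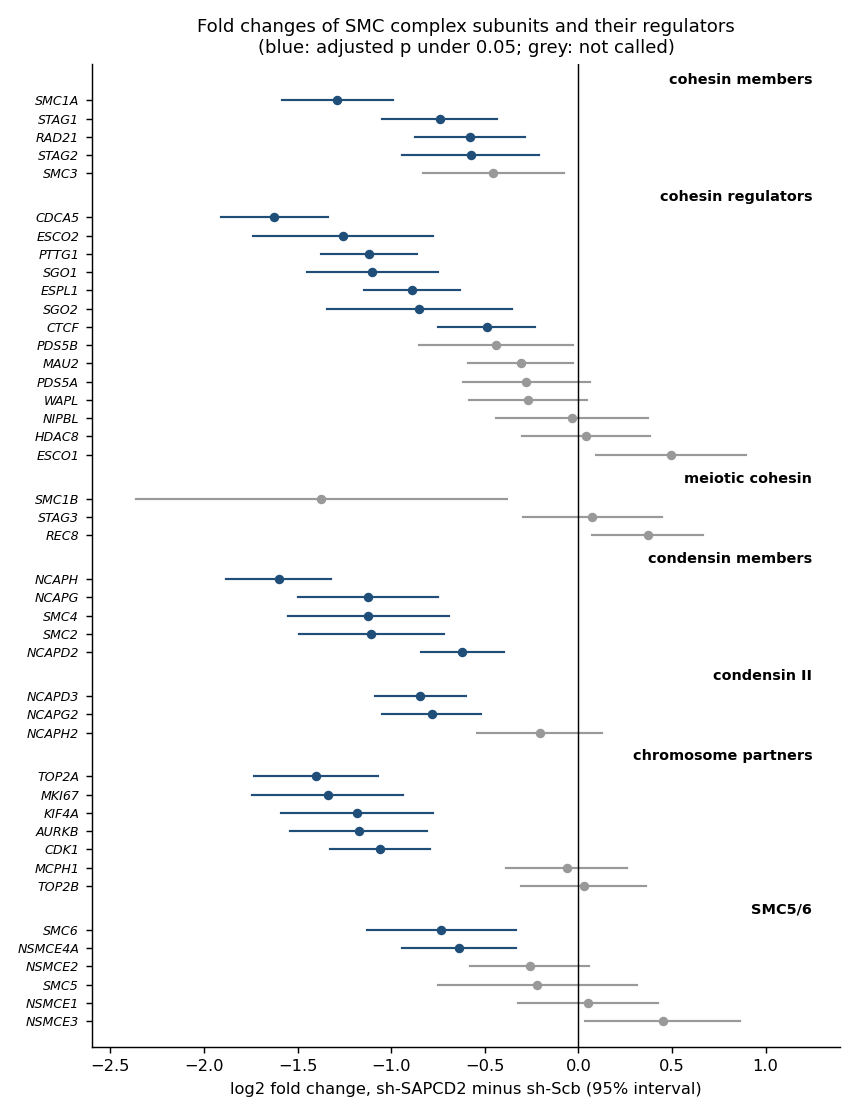
Log2 fold change of each tested gene (sh-SAPCD2 minus sh-Scb, 2 libraries each) with its 95% interval from edgeR's quasi-likelihood fit, by list. Genes with an adjusted p under 0.05 are blue and all of these lie left of 0. The intervals of NIPBL, TOP2B, MCPH1, NCAPH2 and HDAC8 are among those that include 0.

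Genes of the cell cycle fell together with the members. The G2/M list distributed with Seurat holds SMC4 and NCAPD2, and with these left out 40 of its 52 other genes fell and 1 rose, with a median log2 fold change of -0.77. The S-phase list holds no member, and 37 of its 43 genes fell, with a median of -1.04. The median of the condensin members was -1.12 and that of the cohesin members -0.58. The part of the cell cycle in the change of the subunits was not tested.

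The genes whose pattern over the 4 libraries was most like the mean centred log2 CPM of the 5 condensin members were sought among 10425 other genes with a mean of at least 10 CPM. The 5 nearest by Euclidean distance were LAMA4 (0.0266), MAP2K6 (0.0315), PDLIM5 (0.0326), ENOX2 (0.0418) and ENSG00000276256 (0.043), which has no symbol in GENCODE 44. The distances of the members were taken to the same mean, which holds each of the 5 condensin members itself and no cohesin member. Among the members, NCAPG (0.091) and SMC2 (0.103) lay nearest to the condensin mean, and then SMC4 (0.163) and SMC1A (0.171). NCAPH (0.492) and NCAPD2 (0.548) lay about as far from it as RAD21 (0.547) and STAG2 (0.541) did. With 4 libraries in 2 groups, such a distance reflects little beyond the fold change and the gap between the knockdown libraries.

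Reads of several members cannot be told apart from those of an overlapping gene, since the sources used here do not name the strandedness of the counting. All of these overlaps are with a gene on the other strand, whose counts are given unscaled. SMC4 shares 1553 exon bases with TRIM59, which had 2138 and 2291 counts in the control libraries and 1404 and 1537 in the knockdown libraries, and 243 with IFT80 (1968 and 1804 against 1422 and 1398 counts). NCAPG shares 1634 exon bases with LCORL (1598 and 1539 against 1850 and 1920 counts), and NCAPD2 383 with MRPL51 (1623 and 1670 against 1388 and 2805). In the cohesin group, STAG1 shares 1661 with PCCB (1475 and 1540 against 1331 and 1701), RAD21 576 with UTP23 (779 and 763 against 695 and 771) and STAG2 241 with TENM1 (80 and 85 against 108 and 90). As unscaled counts, those of TRIM59 and IFT80 were lower in both knockdown libraries, and those of LCORL and TENM1 were higher in both. Those of MRPL51, PCCB and UTP23 overlapped between groups. The knockdown libraries had the smallest and the largest total, 25347900 and 31850997 counts, so these orders can differ after scaling and give no direction of expression. For SMC1A, SMC3, SMC2 and NCAPH no such overlap with an expressed gene was found.

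The hairpins themselves were compared with the 3′ UTRs of the members, because a short hairpin can lower mRNAs other than its target through its seed. The arms of sh-SAPCD2 #1 and #2 are given 5′ to 3′ from the study's supplementary methods, with bases 2 to 8 of each arm in capitals.
sh-SAPCD2 #1 guide: aTGAAGGTggaatccagaggt
sh-SAPCD2 #1 passenger: aCCTCTGGattccaccttcat
sh-SAPCD2 #2 guide: aTCATCTCcaaaccctgcagc
sh-SAPCD2 #2 passenger: gCTGCAGGgtttggagatgat
The site of the guide seed of #1, ACCTTCA, was in the annotated 3′ UTR of 0 of the 10 members, against 12.5% of 13584 tested genes with such a UTR. The site of the guide seed of #2, GAGATGA, was in SMC1A alone, against 14.8% of these genes. The passenger seed of #1 matched NCAPD2 and that of #2 matched SMC1A, against 17.6% and 20.8% of these genes. SMC1A has the longest 3′ UTR of the 10 members, and the shares of the seed sites among long 3′ UTRs were not counted. Sites shifted against the seeds of #1, 4 in number, were also counted, and these had been singled out earlier on these same libraries. Of the 10 members, SMC1A alone held any, with AGAGGTC at 1 place and GAGGTCA at 2 places. AGAGGTC pairs with the passenger arm only if the G before the arm in the hairpin, not printed above, is included. The same holds for GAGGTCA, whose last A lies outside the pairing. Any of the 4 was in 33.9% of the tested genes. The 3′ UTR of SMC1A is 5954 bases long, and of 1126 tested genes with a 3′ UTR of at least 5000 bases 82.7% held any of the 4. The part of these sites in the change of SMC1A was not tested.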

How the data were processed

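RNA-seq was performed on 4 libraries of SK-N-BE(2) cells, 2 with sh-Scb and 2 with sh-SAPCD2. The authors mapped paired-end reads with HISAT2 2.2.0 (hg38), ran StringTie and deposited whole-number counts for each Ensembl gene, which carry no scaling for depth. How counts were derived, with which Ensembl release, whether strand was used and how multi-mapped reads were treated is not given in the sources used here. Counts were scaled by TMM and tested in R 4.3.3 with the two-sided quasi-likelihood test of edgeR 4.0.16 after filterByExpr (minimum count 10, minimum total count 15), with Benjamini-Hochberg adjustment over 18779 genes, fitted on all 4 libraries with the condition as the only term. A gene was called at an adjusted p under 0.05, and "rose" and "fell" are used for called genes. Intervals are 95% intervals of the fit. GENCODE 44 gave symbols, positions (hg38) and lengths, and 17467 tested genes had a match. As alternatives, DESeq2 1.42.0 was run, and edgeR was refitted with DESeq2 size factors, library totals, other filters, the replicate block, a loess correction for GC content and length (span 0.3), the fold threshold, and each library left out. The members and lists were chosen with earlier results of these data known. Genes named are the members, SAPCD2, genes of the fixed lists, and the 5 nearest in pattern, and overlapping genes were added after the values were seen. The test was tried on simulated data. The result of 1 marker of other cells is not reported here.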

Additional observations from a re-analysis of the deposited data

How the results depend on the processing

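Over the alternatives, the log2 fold changes of the 10 members and SAPCD2 kept their sign in all 132 refits, and 115 kept the same side of the threshold, 11 lost the call and 6 gained it (all 6 for SMC3). SMC1A, SMC2, SMC4, NCAPG and NCAPH were called in every refit. The labels give shared replicate numbers but do not say that they mark shared cultures, and the deviations of same-numbered libraries correlated at -0.0188. With the replicate block, 5 cohesin and 5 condensin members were lower, SMC3 at an adjusted p of 0.0261, and no other call on a member changed. Without the filter on low counts, 2 cohesin members and 1 gene of SMC5/6 were lower, and over all genes 1180 were lower and 1081 higher. SAPCD2 then had an adjusted p of 0.0749. With the fold threshold, 1 cohesin member was lower, and 968 and 880 of all genes were called. With the GC content and length correction, 3533 genes were lower and 3980 higher, 11 cohesin regulators were lower and 1 was higher, and 1 gene of SMC5/6 was higher. Of condensin II genes and partners together, 8 were then lower, against 7 in the main fit, and 0 were higher. With this correction and the replicate block together, 3927 genes were higher, with 1 higher cohesin regulator and 1 higher gene of SMC5/6. With each library left out, lower genes ranged from 1146 (without sh-Scb replicate 1) to 4014 (without sh-SAPCD2 replicate 1) and higher genes from 1176 (without sh-Scb replicate 2) to 4396 (without sh-SAPCD2 replicate 1), and the library left alone in its group was assumed to vary like the other group. Over the same refits, lower cohesin members ranged from 1 to 5, lower cohesin regulators from 5 to 12 and higher ones from 0 to 2, higher condensin II genes and partners from 0 to 1, lower genes of SMC5/6 from 0 to 3 and higher ones from 0 to 1, and the median of the cohesin members from -0.81 to -0.45. The cause of these shifts was not tested. Ratios between subunits changed with the length used, and SMC1A to SMC3 in the control group was 1.30 by the exon union and 0.518 by the canonical transcript.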
